A study of Acropora aff. hyacinthus sp. E JTL-2012 with 12 samples.

Results

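Contigs whose descriptions name the machinery of DNA replication, the cell cycle and DNA repair were followed in the tabletop coral Acropora aff. hyacinthus. A contig is an assembled stretch of transcript. The members were the contigs whose description contains claspin, DNA replication, DNA polymerase, replication factor, replication protein A, cyclin-, cell division cycle, DNA repair, DNA mismatch, origin recognition, DNA ligase, DNA topoisomerase or proliferating cell nuclear, without the word transposon. The rule found 117 members among 16980 contigs. The fall of Claspin (contig107904) in pool 300 was known when the members were chosen, so it counts as a description of what led to the choice.

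The 12 RNA libraries came from polyps of 6 coral colonies that were each split between 2 back-reef pools. Pool 300 held fragments of its own corals 2, 7 and 75 and of corals 40, 68 and 70, which are native to pool 400. Pool 400 held the other fragment of each of these colonies, so that 4 groups of 3 corals arose from pool of origin and pool of residence. All fragments were transplanted in August 2010, those returned to their pool of origin included, and were sampled near noon in August 2011. Each colony gave 1 library in each pool, so the colony is the replicate. Pool 300 is known as the back-reef pool with the wider swings of water temperature, and the design asks how expression depends on the pool lived in, the pool of origin and the colony.

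Before a cell divides, origin recognition and MCM proteins license the sites where copying starts, and the helicase, primase, polymerases, sliding clamp and single-strand binding proteins then copy the DNA at replication forks. Cyclins and their kinases drive the steps of the cycle, and checkpoint proteins such as Claspin slow it when a fork stalls. Many of these genes are read mainly in dividing cells. A library of whole polyps cannot tell fewer dividing cells apart from less RNA per cell.

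Values are deposited normalised reads, that is, reads scaled by a factor for each library. Recovered totals spanned 557339 to 1643526 reads, the lowest and the highest both in pool 400 (corals 2 and 70), so low contigs rest on few reads. The deposited scale was uneven in pool 400: a median-ratio rescaling divided the pool 300 libraries by 1.02 to 1.03 and the pool 400 libraries by 0.797 to 1.601, with the extremes in corals 2 and 70. Coral 70 therefore carried higher pool 400 values across the whole table, with a median difference over all tested contigs of -0.53, against 0.09 after rescaling. The fragments of corals 40 and 68 correlated less with their own partner than with the other coral's, and results without these corals stand beside those that change. The summed level of 27 germ line contigs ran from 1731 to 2784 in pool 300 and from 1722 to 2782 in pool 400, and that of 65 sperm and cilia contigs from 2434 to 2728 and from 2245 to 4225. Muscle contigs (25) ran from 2426 to 2941 in pool 300 and from 1683 to 3259 in pool 400, the 6 cnidocyte contigs from 48.3 to 111 and from 53.7 to 150, and the 2 Symbiodinium contigs from 43.4 to 86.7 and from 52.99 to 121. No contig of these lists was at 0 in every library, and the part of these cell types in the results was not tested.

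A member was tested where its mean over the 12 libraries was at least 10, which held for 85 of the 117 members, or 72.6%, against 70.1% of all contigs. The other 32 members had means of 3.45 to 9.50 and are not described further. They include the DNA polymerase alpha catalytic subunit, GINS protein PSF2 (contig218891), both contigs of replication factor C subunit 5, cyclin-A, the CDC20, CDC23 and CDC27 contigs and Msh3. The tested members had means of 10.2 to 689 with a median of 29.8, against a median of 39.1 for all tested contigs. The 117 members carried 83 distinct descriptions, and 57 contigs shared a description with another, so contigs of 1 name need not be different genes. Of the 117 members, 20 are known for other work, among them transcription (cyclins C and K, CDK8, CDK9), splicing (the CDC5-related contigs) and mobile elements, and are counted apart. The split went by description. Some members left in the cycle groups, such as the cyclin-D-binding Myb-like transcription factor 1 contigs, may have other work too. Contig lengths were not used, so values are compared between libraries and not between genes.

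Claspin was the 1 member that passed the test for the pool lived in. Of the 85 measured members, 1 was lower in pool 300 than in pool 400 and none was higher by limma with a Benjamini-Hochberg adjusted p under 0.05. Over all tested contigs the same test called 41, or 0.344%, every one of them lower in pool 300. The median difference of the members was 0.03 on the log2(value + 1) scale, pool 300 minus pool 400, and that of all contigs was 0.03 as well. Without Claspin the members ran from -0.89 to 1.49. The 95% interval lay within a 2-fold change in either direction for 58 of the 85 members, against 8716 of the 11903 contigs tested. At an unadjusted p under 0.05 limma named 2 of the 85 members, against 580 of the 11903 contigs.

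**Figure D1:**
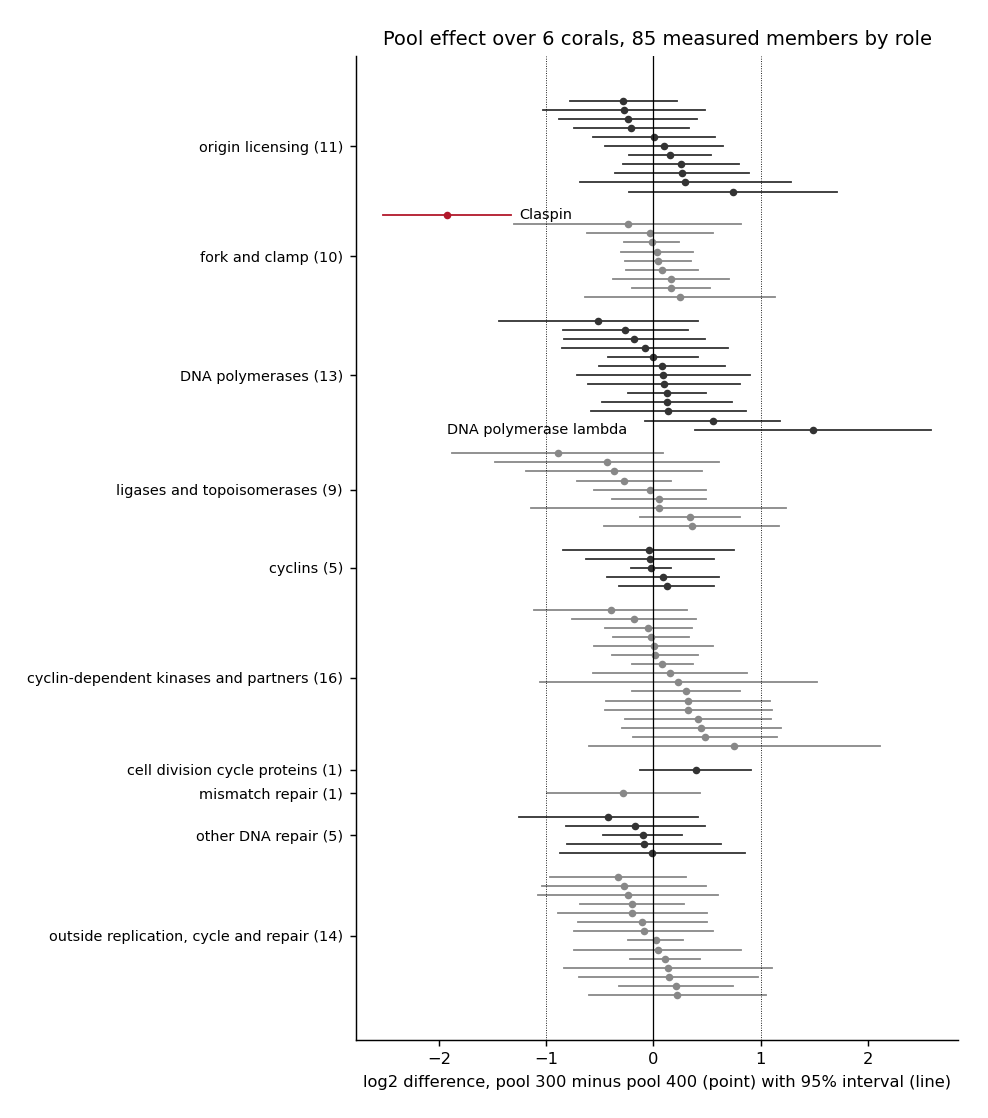
Log2 difference of each of the 85 measured members between pool 300 and pool 400 over 6 corals (points, pool 300 minus pool 400) with 95% limma intervals (lines), by role, with the number of members in parentheses and dotted lines at a 2-fold change. Claspin stands at -1.93 (red, called), DNA polymerase lambda at 1.49 (not called), and the others lie between -0.89 and 0.76.

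Claspin (contig107904) is an adaptor at the replication fork through which the kinase ATR activates CHK1, and it was the only contig of that name. Fragments in pool 300 had values of 30.4, 36.7 and 47.3 in corals 2, 7 and 75 and of 53.3, 45.8 and 37.1 in corals 40, 68 and 70. Fragments in pool 400 had 252, 177 and 261 in corals 2, 7 and 75 and 201, 111 and 61.6 in corals 40, 68 and 70. Every pool 300 fragment was thus below every pool 400 fragment, and the pool 400 fragments were spread more widely, from coral 75 at the top to coral 70 at the bottom. The values rest on 21, 59, 47, 91, 38 and 39 reads in pool 300 and on 152, 203, 247, 243, 81 and 89 reads in pool 400, in the same order of corals. Claspin fell by 1.93 on the log2 scale (SE 0.27, 95% interval -2.52 to -1.33, limma adjusted p = 0.0205), and it was lower in 6 of 6 corals. Single corals were at -3.01, -2.24 and -2.44 in those from pool 300 and at -1.89, -1.26 and -0.72 in those from pool 400.

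The call depended on the scaling and on the corals included, while the size did not. After median-ratio rescaling coral 70 had 36.2 in pool 300 and 38.5 in pool 400, a difference of -0.09, so that the groups overlapped and the limma adjusted p was 0.0905. With edgeR on the recovered reads the adjusted p was 0.0630. Without corals 40 and 68, an omission chosen after the data were seen, the difference was -2.10 and the limma adjusted p 0.116, while with their pool 400 fragments exchanged it was 0.00948. Leaving out coral 2, 7, 75 or 40 alone gave limma adjusted p of 0.0782, 0.0905, 0.0996 and 0.0604. Over 16 alternatives the difference ran from -2.17 to -1.71 and was called in 9. On the deposited scale 56 contigs, or 0.47% of those tested, had all 6 pool 300 libraries below all 6 pool 400 libraries, and Claspin was the 1 member among them; 4 contigs, or 0.0336%, had all of them above, none of them a member. After rescaling these counts were 25 (0.21%) and 8 (0.0672%), with no member below and DNA polymerase lambda (contig132163) above. By edgeR 8 contigs passed for the pool effect, or 0.0672%, with no member, and by DESeq2 104, or 0.874%, with Claspin as the 1 member.

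**Figure D2:**
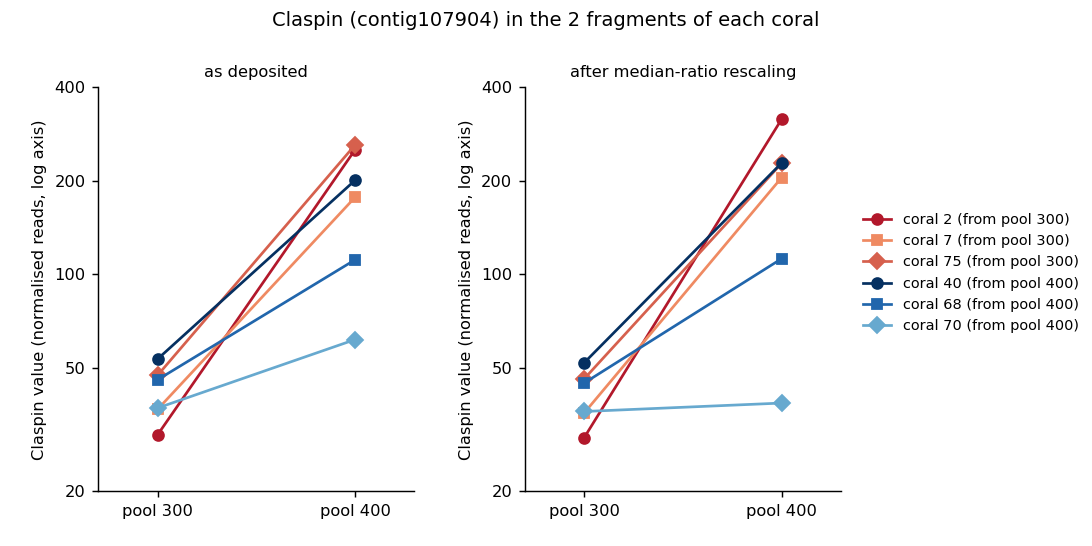
Claspin value (normalised reads, log axis) in the pool 300 and pool 400 fragment of each coral, as deposited (left) and after median-ratio rescaling (right). All 6 lines are lower in pool 300, from 252 against 30.4 in coral 2 down to coral 70, whose line is nearly flat after rescaling, at 36.2 in pool 300 and 38.5 in pool 400.

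In the 3 corals native to pool 300, Claspin fell by 2.56 in pool 300 (SE 0.23, limma adjusted p = 0.000664), and it was called in all 12 alternatives, with adjusted p up to 0.0287. It was the 1 member called among 111 contigs, or 0.933% of those tested, of which 98 were lower and 13 higher in pool 300. In the 3 corals native to pool 400 the difference was -1.29 (SE 0.32, limma unadjusted p = 0.00198, adjusted p = 0.589). In those corals 0 contigs passed, or 0%. At an unadjusted limma p under 0.05 there were 239 of the 11903 contigs and 2 of the 85 members. By edgeR and DESeq2 0 contigs were called as well. Other settings did call contigs in these corals, 36 when corals 40 and 68 swapped their pool 400 libraries, 90 without coral 40, 34 without coral 68 and 5 with no filter on low values, and none of them was a member. With this swap the limma adjusted p of Claspin was 0.143. The difference between the origins in Claspin's pool effect was -1.27 (SE 0.39, 95% interval -2.13 to -0.41), with a limma unadjusted p of 0.00801 that did not survive adjustment (0.9996). For that difference limma called 0 contigs, or 0%. The unadjusted limma p was under 0.05 for 211 of the 11903 contigs and 1 of the 85 members. There edgeR called 1 contig and DESeq2 2, none of them a member. A larger fall in corals native to pool 300 is therefore not shown.

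The partners of Claspin at the fork did not pass the test. The protein timeless homolog (contig152069) and TIMELESS-interacting protein (contig204193), which travel with the fork and work with Claspin in other animals, differed by -0.62 (SE 0.47) and 0.74 (SE 0.46). The timeless homolog had 7.24, 13.1 and 7.04 in pool 300 and 3.31, 15.7 and 24.3 in pool 400 for corals 2, 7 and 75, and for corals 40, 68 and 70 it had 17.0, 6.02 and 4.76 in pool 300 and 11.6, 10.999 and 31.2 in pool 400. Its groups overlapped, with coral 70 the farthest apart.

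The sliding clamp and most of its partners had intervals well inside a 2-fold change. Proliferating cell nuclear antigen (PCNA), the ring that holds polymerases on DNA, ran from 72.9 to 180 with a median of 129 in pool 300 and from 58.7 to 200 with a median of 108 in pool 400 for contig155141. Its difference was 0.08 (95% interval -0.26 to 0.41), and the second PCNA contig (contig10156) was at 0.03 (-0.31 to 0.37). Replication factor C subunit 4, a part of the clamp loader, ran from 99.6 to 172 (median 137) in pool 300 and from 107 to 192 (median 125) in pool 400 for contig108858. Its difference was -0.01 (-0.27 to 0.24), among the narrowest intervals of the members, and the second contig of that name (contig79091) was at 0.25 (-0.64 to 1.13). Replication protein A (RPA), which coats single-stranded DNA, was at 0.04 (-0.27 to 0.35) for its 70 kDa subunit (contig59157) and at 0.16 and -0.03 for the 2 contigs of its 32 kDa subunit. The GINS protein PSF2 (contig81787), a part of the replicative helicase, was at 0.16 (-0.20 to 0.53). None of these intervals reaches the difference seen in Claspin, which led to the choice of members. Among the 11903 contigs tested, 8716 had intervals within a 2-fold change, which do not reach it either. The comparison therefore does not set these members apart. Replication factor C subunit 1 (contig151146) was less precise, at -0.24 (-1.30 to 0.81), with values from 7.24 to 29.3 in pool 300 and from 3.31 to 49.2 in pool 400.

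Origin licensing factors gave no call among 11 measured members, with a median difference of 0.10 and a range from -0.28 to 0.75. The MCM proteins form the helicase loaded at origins. Zygotic mcm6 (contig181350) ran from 43.4 to 70.9 (median 56.7) in pool 300 and from 41.9 to 114 (median 59.4) in pool 400, a difference of -0.21 (SE 0.24). Its highest value was in the pool 400 fragment of coral 70, as for mcm2 (42.9), maternal mcm3 (97.7) and mcm4 (83.1, contig204118), the library that stands apart in scale. The other MCM contigs were at -0.27 (mcm2), -0.24 (mcm3), -0.28 and 0.30 (mcm4), 0.00 (mcm7-A), 0.15 (mcm7-B) and 0.27 (MCM8, known for recombination rather than licensing). Of the origin recognition complex, which marks the start sites, subunit 1 was at 0.26 and subunit 3 at 0.75 (SE 0.44, contig100239) and 0.10 (contig131147). The first of these subunit 3 contigs rests on low values, from 5.604 to 23.2 in pool 300 and from 0.872 to 19.4 in pool 400.

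The replication core was taken as the licensing, fork and polymerase members other than Claspin, polymerases of repair left out, and 27 of its 34 contigs were measured. Its summed value was 1452, 1081 and 1248 in the pool 300 fragments of corals 2, 7 and 75, against 1412, 957 and 1321 in their pool 400 fragments. In corals 40, 68 and 70 it was 1168, 1307 and 1153 in pool 300, against 907, 1177 and 1691 in pool 400. The sum was thus higher in pool 300 in 4 corals and lower in corals 75 and 70 on the deposited scale. The median difference of the core contigs by coral was 0.26, 0.22 and -0.07 in corals 2, 7 and 75 and 0.54, 0.15 and -0.68 in corals 40, 68 and 70. After rescaling these medians were -0.06, -0.01 and 0.08, and 0.32, 0.11 and -0.08, so the direction in corals 2, 7 and 75 followed the scale. Over 6 corals the median pool difference of the core was 0.09, with no contig called.

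**Figure D3:**
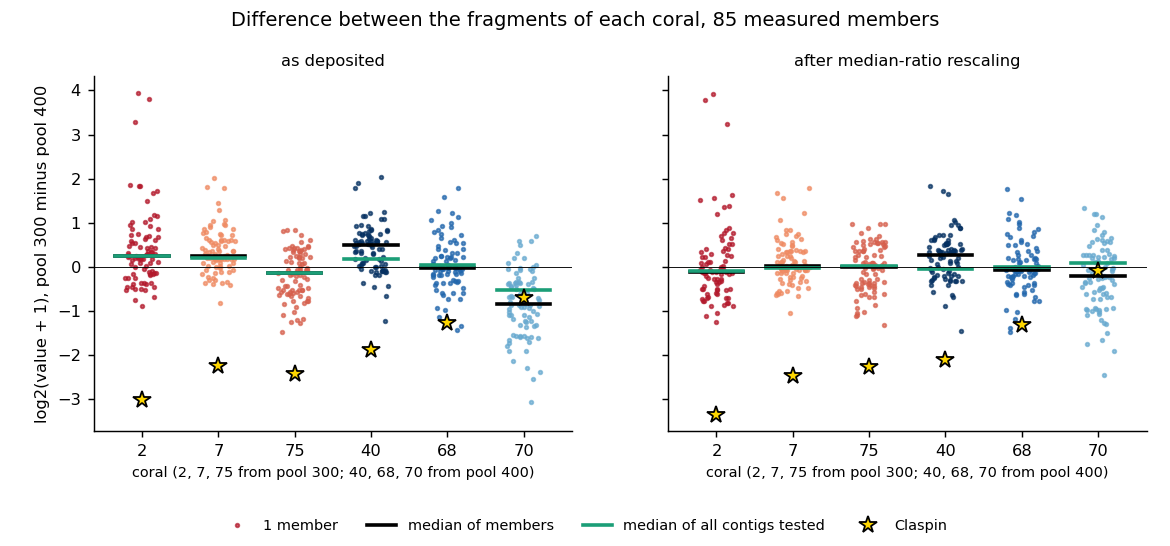
Log2 difference between the pool 300 and pool 400 fragment of each coral for the 85 measured members (points; Claspin as a star), as deposited (left) and after median-ratio rescaling (right), with medians of the members (black) and of all tested contigs (green). Members follow all contigs closely in corals 2, 7, 75 and 68, lie above them in coral 40 (0.49 against 0.17) and below them in coral 70 (-0.83 against -0.53).

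Coral by coral, the members lay close to the rest of the table except in corals 40 and 70. The median difference of the members was 0.24, 0.25 and -0.15 in corals 2, 7 and 75, against 0.25, 0.21 and -0.13 for all contigs. In coral 40 it was 0.49 against 0.17, and after rescaling 0.27 against -0.04. In coral 70 it was -0.83 against -0.53, and after rescaling -0.21 against 0.09. Of the 85 members, 75 were lower in pool 300 in coral 70 on the deposited scale and 51 after rescaling, and 18 and 30 in coral 40. The value of coral 40 rests on the labels that pair its fragments. With the pool 400 fragment of coral 68 in place of its own, the median of the members was 0.06 against 0.03 for all contigs, and 0.01 against -0.02 after rescaling. With 1 fragment in each pool, the difference of a single coral has no replicate.

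DNA polymerases gave no call among 13 measured members, with a median difference of 0.09. DNA polymerase lambda, which fills gaps during repair, had 14.5, 17.4 and 14.1 in pool 300 in corals 2, 7 and 75 and 15.8, 12.0 and 15.2 in corals 40, 68 and 70 for contig132163. In pool 400 it had 0, 4.36 and 7.39 in corals 2, 7 and 75 and 6.61, 5.50 and 13.2 in corals 40, 68 and 70. All 6 corals were higher in pool 300, and only the pool 400 fragment of coral 70 reached into the pool 300 range. The difference was 1.49 (SE 0.50, 95% interval 0.39 to 2.59), with a limma unadjusted p of 0.0131 and an adjusted p of 0.610, on 0 to 28 reads a library. The second contig of that name (contig71143) was at 0.08 (SE 0.26), with values from 31.4 to 51.8 in pool 300 and from 15.7 to 64.4 in pool 400.

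The polymerases that copy the genome gave mixed differences, none of which passed. DNA polymerase alpha subunit B (contig117608), of the primase complex that starts each strand, ran from 50.4 to 76.5 (median 62.1) in pool 300 and from 51.3 to 76.2 (median 54.3) in pool 400, a difference of 0.13 (-0.24 to 0.49). The polymerase delta catalytic subunit was at -0.51 (SE 0.42) and the epsilon catalytic subunit A (contig78026) at 0.55 (SE 0.28, limma adjusted p = 0.9996). The translesion polymerases eta and zeta, which copy past damaged bases, were at -0.18 and -0.26, and the 2 contigs of the repair polymerase beta at -0.08 and 0.13.

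Ligases and topoisomerases, which seal nicks and release the twist of copied DNA, gave no call among 9 measured members. Counted with them by its description was DNA topoisomerase 2-binding protein 1 (contig147335), which is no topoisomerase itself. DNA topoisomerase 2-alpha, a mark of dividing cells in vertebrates, had 5.79, 10.6 and 10.1 in pool 300 against 4.97, 13.9 and 25.4 in pool 400 in corals 2, 7 and 75 for contig170403. In corals 40, 68 and 70 it had 14.1, 9.63 and 3.81 in pool 300 against 13.2, 19.2 and 39.5 in pool 400. It was lower in pool 300 in 4 of 6 corals as deposited and in 6 of 6 after rescaling, most of all in coral 70, and the difference of -0.89 (SE 0.44, limma adjusted p = 0.9996) did not pass. The other contig of that name (contig175650), with values from 60.4 to 81.5 in pool 300 and from 54.6 to 128 in pool 400, was at -0.28 (SE 0.20). DNA ligase 1, which joins lagging-strand fragments, was at 0.36, 0.34 and -0.37 in its 3 measured contigs. DNA topoisomerase 1 was at -0.03 and 0.05.

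**Figure D4:**
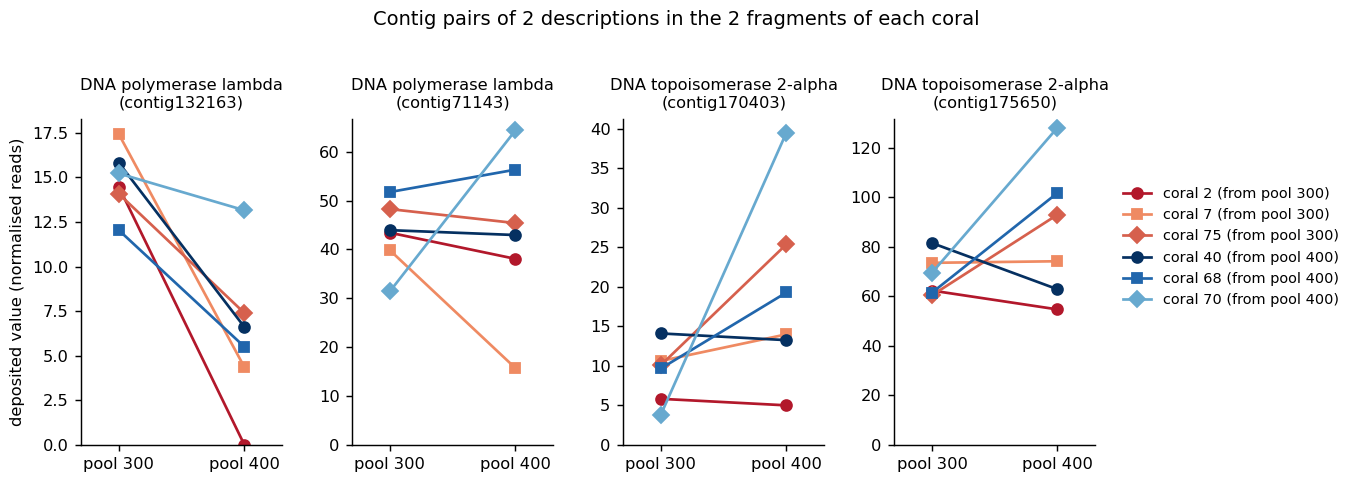
Deposited values (normalised reads, axes from 0) of the paired contigs of DNA polymerase lambda and DNA topoisomerase 2-alpha in the pool 300 and pool 400 fragment of each coral. For polymerase lambda all 6 corals are higher in pool 300 in contig132163, and the lines of contig71143 cross; for topoisomerase 2-alpha coral 70 has the steepest line in both contigs.

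Cyclins and the CDKs with their partners gave no call among 5 and 16 measured members. G1/S-specific cyclin-D2 (contig145471), which drives entry into S phase, was the most precisely measured member. It ran from 592 to 763 (median 687) in pool 300 and from 584 to 800 (median 695) in pool 400, a difference of -0.02 (95% interval -0.21 to 0.16). Cyclin-B and cyclin-B3, which drive mitosis, were at -0.04 and -0.03, with wider intervals of -0.84 to 0.76 and -0.63 to 0.56, and the 2 cyclin-I contigs at 0.09 and 0.12. Cyclin-dependent kinase 2 (CDK2), the S phase kinase, was at 0.02 (contig114705) and 0.08 (contig182165, -0.20 to 0.37). The CDK inhibitor 1B, which holds cells in G1, was at 0.33 and -0.40 in its 2 contigs. Cell division cycle-associated protein 3 (contig120106), known in vertebrates for its part in entry into mitosis, was at 0.39 (SE 0.23).

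Repair members gave no call among 1 mismatch and 5 other measured contigs. The mismatch protein Msh6 was at -0.28 (SE 0.32), and the XP-C and XP-A proteins of nucleotide excision repair were at -0.42 (SE 0.38) and -0.17 (SE 0.29). XRCC1, a scaffold of single-strand break repair, was at -0.09, RAD54B, of recombination, at -0.01, and the alkylated DNA repair protein alkB homolog 1 at -0.10 (-0.47 to 0.27). The 5 other repair members had a median of -0.10. The 14 measured members of other work had a median of -0.04 and no call, with CDK8 at 0.02 (SE 0.11) and CDK9 at 0.11 (SE 0.15, contig171889) and 0.21 (SE 0.24, contig150819).

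Lists of related genes outside the members gave no call for the pool, which at 0.344% of all contigs says little of lists this small. Nucleotide supply had 0 called of 4 measured contigs, mitosis and chromosome segregation 0 of 44, checkpoint and S-phase entry 0 of 21 and other repair and recombination 0 of 27. Their median differences were -0.10, -0.01, 0.03 and -0.08. Ribonucleoside-diphosphate reductase subunit M2 (contig19546), which makes deoxynucleotides in S phase, was at 0.16 (SE 0.16), the reductase large subunit at -0.12 (SE 0.33) and the dUTP hydrolase (contig171183) at -0.22 (SE 0.26). Of the mitosis list, mitotic-spindle organizing protein 2 was at 0.35 (SE 0.18), the MAD2L1-binding protein at 0.44 (SE 0.28) and subunit MIP18 of the MMXD complex at -0.33 (SE 0.21). The p53-induced protein with a death domain (contig600197) of the checkpoint list was at 0.36 (SE 0.28). The lowest unadjusted p of the lists, 0.0549, belonged to a Fanconi anemia group D2 contig (contig209217, -0.63, SE 0.29), a protein of crosslink repair, and the Bloom syndrome helicase homolog was at -0.50 (SE 0.31) and a poly [ADP-ribose] polymerase 14 contig (contig600227) at 0.52 (SE 0.36). The word patterns also matched some unrelated proteins.

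Within each origin the members again followed the table. In corals native to pool 300 their median was 0.07 against 0.13 for all contigs, and in corals native to pool 400 it was -0.07 against -0.09. After rescaling the median of all contigs was -0.02 in corals native to pool 300, against 0.13 as deposited, and -0.06 for the difference between origins, against 0.20, so signs of small changes there follow the scale. The members above the median of all contigs numbered 38 of 85 in corals native to pool 300 on both scales, and 48 of 85 for the difference between origins on both. DNA topoisomerase 2-binding protein 1 (contig147335), a scaffold that activates ATR and no topoisomerase itself, was at -1.33 (SE 0.58) in corals native to pool 400 and at 0.46 (SE 0.55) in those native to pool 300. Its values were 8.69, 21.8 and 15.1 in pool 300 against 1.66, 19.2 and 24.3 in pool 400 in corals 2, 7 and 75, and 17.0, 9.63 and 6.66 in pool 300 against 23.1, 27.5 and 32.5 in pool 400 in corals 40, 68 and 70. The difference between the origins in this contig was 1.79 (SE 0.81, 95% interval -0.00499 to 3.58, limma unadjusted p = 0.0505, adjusted p = 0.9996) and did not pass. Other members of small p did not pass either. In corals native to pool 300 the cyclin-D-binding Myb-like transcription factor 1 (contig212870) was at 0.75 (SE 0.36). In corals native to pool 400 cyclin-K was at -0.82 (SE 0.44) and CDK11B at -0.44 (SE 0.29), and the CDC5-related splicing contig (contig149431) differed between the origins by 0.95 (SE 0.50).

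No member passed the test for pool of origin, where 4 contigs passed limma, or 0.0336% of those tested. The unadjusted limma p was under 0.05 for 1 of the 85 members and 314 of the 11903 contigs. The median of the members was -0.16, origin 300 minus origin 400, against -0.10 for all contigs, and after rescaling the 2 medians were -0.03 and 0.03. The member of smallest p was the cyclin-dependent kinases regulatory subunit 1 (contig104930), a small protein that binds CDKs. It averaged 9.44 ± 3.16 in corals of origin 300 and 22.01 ± 3.37 in corals of origin 400 (SD of coral means, n = 3 each). Corals 2, 7 and 75 had 8.69, 11.8 and 10.1 in pool 300 and 4.97, 5.23 and 15.8 in pool 400, and corals 40, 68 and 70 had 28.1, 15.6 and 20.9 in pool 300 and 19.0, 20.6 and 27.7 in pool 400. Single fragments overlapped between origins, with 15.8 in coral 75 and 15.6 in coral 68. The difference of -1.21 (SE 0.43, limma unadjusted p = 0.0163) had an adjusted p of 0.998. The CDC5-related contig was at -0.78 (SE 0.40), DNA ligase 1 (contig157622) at -0.86 (SE 0.56), polymerase epsilon subunit 4 at -0.61 (SE 0.43), CDK9 (contig150819) at -0.42 (SE 0.30) and polymerase delta subunit 4 (contig9506) at 0.57 (SE 0.38).

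Colonies differed from each other more than fragments of a colony in 592 contigs by limma, or 4.97% of those tested, and in 0 of the 85 members. At an unadjusted limma p under 0.05 there were 20 of the 85 members, against 3094 of the 11903 contigs tested. With edgeR 417 contigs passed, or 3.5%, among them 2 members, and with DESeq2 1223 passed, or 10.3%, among them 6. CDK2 (contig114705) came closest by limma (adjusted p = 0.0554; edgeR 0.102, DESeq2 0.00417). It had 156, 63.5 and 101 in pool 300 and 265, 78.5 and 74.99 in pool 400 for corals 2, 7 and 75, and 65.1, 138 and 103 in pool 300 and 64.4, 118 and 72.0 in pool 400 for corals 40, 68 and 70. It was thus highest in corals 2 and 68 in both pools, 1 coral of each origin, and lowest in coral 7 in pool 300 and in coral 40 in pool 400. The second CDK2 contig (contig182165) had a limma adjusted p of 0.0735.

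The CDK regulatory subunit (contig106291) and PCNA (contig155141) were also highest in corals 2 and 68 in both pools. The regulatory subunit had 169 and 243 in the pool 300 and pool 400 fragments of coral 2 and 187 and 201 in those of coral 68, against 93.4 and 123 in coral 7 and 99.1 and 64.4 in coral 40. PCNA had 180 and 200 in coral 2 and 135 and 142 in coral 68, against 72.9 and 96.8 in coral 7 and 87.9 and 58.7 in coral 40. Their limma adjusted p were 0.0671 and 0.0608. Corals 2 and 68 are also the shallowest, with 1221419 and 1405919 reads over both fragments, against 1770960 in coral 75, 2148073 in coral 7, 2268843 in coral 40 and 2558738 in coral 70. The deepest coral, 70, had 133 and 107 for PCNA and 134 and 137 for the regulatory subunit as deposited. After rescaling it had 130 and 67.1 for PCNA and 131 and 85.7 for the regulatory subunit. Its place among the pool 400 fragments thus followed the scale. Coral 2 held the highest mean among the 6 corals in 11 of the 26 members with a mean of at least 50 (42.3%), against 39.5% of the 4928 such contigs in the whole table, a comparison chosen after the values were seen. This share does not set the members apart from other contigs, and the part of depth was not tested.

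Other members of small p between colonies were high in 1 coral or in several, and not all of them were called. DNA polymerase delta subunit 4 (contig9506) had 88.3 in pool 300 and 126 in pool 400 in coral 2, and between 28.9 and 49.2 in every fragment of the other corals (limma adjusted p = 0.0698, edgeR 0.0345, DESeq2 0.00172). DNA topoisomerase 3-alpha (contig156992), which untangles crossed DNA strands, had 52.3 in pool 300 and 24.4 in pool 400 in coral 7, on 84 and 28 reads, and at most 9.51 in other corals. It was called by edgeR (adjusted p = 0.0222) and DESeq2 (0.00012) and not by limma (0.121). DNA ligase 1 (contig157622) had 57.9 and 29.6 in the pool 300 and pool 400 fragments of coral 7, 58.6 and 58.7 in coral 40 and 36.2 and 69.3 in coral 70. It had 20.3 and 4.97 in coral 2, 13.1 and 23.2 in coral 75 and 24.1 and 10.999 in coral 68 (DESeq2 adjusted p = 0.00454, limma 0.114). The other measured contigs of that name did not share this order. Corals 7, 40 and 70, where contig157622 was high, are the deepest, with 2148073, 2268843 and 2558738 reads over both fragments. The part of depth in this contig was not tested. Cell division cycle-associated protein 3 had 92.7 and 134 in coral 2 and 63.8 and 33.0 in coral 68 (DESeq2 adjusted p = 0.00565, limma 0.0841). The CDC48 homolog AF_1297 (contig174966), of a family of protein-unfolding ATPases, had 28.2 and 21.1 in the pool 300 and pool 400 fragments of coral 75, 12.4 and 27.7 in those of coral 70 and 2.41 and 4.12 in those of coral 68 (limma adjusted p = 0.0975), and alkB homolog 1 was at a limma adjusted p of 0.114. Which colonies were high thus differed between members, and the calls differed between methods.

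**Figure D5:**
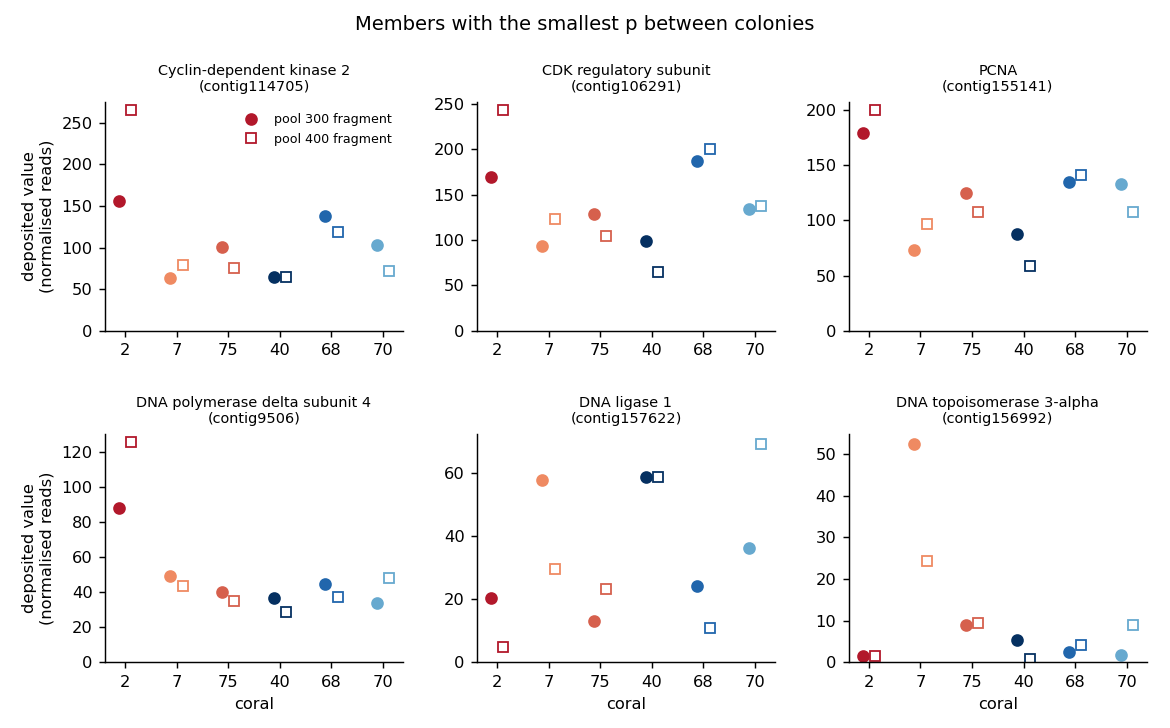
Deposited values (normalised reads, axes from 0) of 6 members with low p between colonies, for the pool 300 fragment (filled circle) and pool 400 fragment (open square) of each coral. CDK2, the CDK regulatory subunit and PCNA are highest in corals 2 and 68, polymerase delta subunit 4 in coral 2, and topoisomerase 3-alpha in coral 7.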

How the data were processed

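RNA of 12 libraries was measured as one deposited table of 16980 contigs with descriptions. The deposited values are a signal: counts of reads scaled by 1 factor per library, as their steps show. A read is worth 0.586 to 1.66, and 99.9995% of values are whole multiples at a tolerance of 0.01 (1 value, read as 0, was not). The pool 400 columns are marked as adjusted, per the file headers, with no method given. Per the submitters' processing notes, BWA and DESeq were used, with no version or role. Recovered totals ran from 557339 to 1643526 reads (median 885480), and counting error is all that depth describes.

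Values of the 11903 contigs with a mean of at least 10 entered limma 3.58.1 (R 4.3.3, variance trend) as log2(value + 1), with Benjamini-Hochberg adjustment over all contigs in each of 6 comparisons, at 0.05. Folds on this scale understate changes of low contigs. In pool effects the coral was a block: per the labels, its fragments come from the same colony. The correlation of the partners' deviations from their group means was 0.69, 0.66 and 0.49 for corals 2, 7 and 75 and -0.23, 0.06 and 0.38 for corals 40, 68 and 70. Origin was tested on coral means and colonies by an F test with pool as a covariate. The count tests, edgeR 4.0.16 (8 and 417 contigs called for the pool and for colonies) and DESeq2 1.42.0, were alternatives on recovered reads, beside other pseudocounts (0.5, 8), filters (none, mean 30), median-ratio rescaling, no block, exchanged pool 400 fragments of corals 40 and 68, and each coral left out. Tests of pool, of origin and of the difference between origins were 2-sided, and the colony tests have no direction. The fits were tested on simulated data. Members and lists were chosen with earlier results of these data known. Named were members called in any comparison, the 6 of smallest p in each (10 for colonies), the 2 of highest value per role, and the 3 of smallest p per related list; PCNA, MCM, origin recognition, replication factor C, replication protein A, ligase and topoisomerase contigs could be named as well, and the translesion, repair polymerase, cyclin-B, inhibitor 1B, GINS and repair members, and the untested members listed, were named after their values were seen. Positions and sequences of contigs were not analysed here.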

Additional observations from a re-analysis of the deposited data

Results flagged for a closer look

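In groups of 6 libraries, a library was singled out by its gap to the nearest other as a share of the group's whole range. Gap and range were taken on log2(value + 1), while the values printed below are as deposited. The limit was Dixon's 95% critical value, which chance passes in about 5% of groups. Among 48 groups of 24 named members 5 were singled out, 4 of them in the pool 400 fragment of coral 2, the shallowest library. Cell division cycle-associated protein 3 (contig120106) had 134.12 there, against 21.5 to 41.0 in the other pool 400 libraries. DNA polymerase delta subunit 4 (contig9506) had 125.84, against 28.9 to 48.5. DNA polymerase lambda (contig132163) had 0 there, against 4.36 to 13.2, and DNA topoisomerase 2-binding protein 1 (contig147335) had 1.66, the worth of 1 read, against 19.2 to 32.5. DNA polymerase epsilon catalytic subunit A (contig78026) had 10.5 in the pool 400 fragment of coral 7, against 26.1 to 43.0.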

How the results depend on the processing

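Of the results for named members in the pool, origin and difference comparisons, 403 kept their direction and side of the threshold, and none reversed. Apart from Claspin's called pool effects, these were uncalled throughout and had no call to lose. The other 7 kept their direction and lost the call, all of them Claspin's pool effect over 6 corals. For that effect 0 members were called after median-ratio rescaling (Claspin limma adjusted p = 0.0905), with edgeR (0.0630) and without corals 40 and 68, an omission added after seeing the data (0.116). Leaving out each coral gave 0 to 1 members, with Claspin lost without coral 2 (0.0782), 7 (0.0905), 75 (0.0996) or 40 (0.0604). Members called between colonies numbered 1 with pseudocount 8 (CDK2, contig114705), 1 after rescaling (polymerase delta subunit 4, contig9506), 2 with edgeR and 6 with DESeq2, and 0 to 3 with each coral left out, the 3 without coral 70. Without the replicate block 38 contigs passed for the pool, Claspin among them, against 41 with it, and 9 against 111 in corals native to pool 300, again with Claspin. Over all alternatives the contigs called ran from 0 to 104 for the pool, 9 to 251 in corals native to pool 300, 66 of these with the spread shared over 12 libraries (added after seeing the data), 0 to 90 in those native to pool 400, 0 to 2 for the difference between origins, 1 to 42 for origin and 112 to 1223 for colonies. Coral 70's pool 400 scale and low counts in coral 2 limit what single contigs show.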

Other observations

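Of the 94 measured contigs of the related lists, 3 differed between colonies by limma, or 3.19%, against 4.97% of all contigs tested, so the lists do not stand above the table. Mitotic-spindle organizing protein 1 (contig98472), which recruits the nucleators of spindle microtubules, had 224 in the pool 300 fragment of coral 2 and 265 in its pool 400 fragment, and 165 in both fragments of coral 68. The other corals had 77.1 to 144 (limma adjusted p = 0.0197). Corals 2 and 68 are the corals in which CDK2 was highest, and the shallowest. A Fanconi anemia group D2 contig (contig132942) had 108 in pool 300 and 156 in pool 400 in coral 70, against 33.6 to 77.1 in the other corals (limma adjusted p = 0.0496). The second contig of that name (contig209217) was also highest in coral 70, with 39.0 in pool 300 and 72.0 in pool 400, against 8.72 to 26.4, and did not pass (0.114). Poly [ADP-ribose] polymerase 14 (contig92817), of a family that attaches ADP-ribose to proteins, had 38.1 in pool 300 and 60.9 in pool 400 in coral 70, against 7.24 and 1.66 in coral 2 (limma adjusted p = 0.0468). The 1.66 is the worth of 1 read, and the other corals had 14.45 to 28.6. The other tested contigs of that name, contig78598 and contig600227, did not pass (limma adjusted p = 0.248 and 0.303). The pool 400 fragment of coral 70 is the library whose scale stands apart, and its part in these values was not tested.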
